A study of Mus musculus with 6 samples.

Results

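Immediate early genes, 10 in number, were described in F4/80+ bone marrow cells, selected by gene symbol: Fos, Fosb, Jun, Junb, Jund, Atf3, Egr1, Nr4a1, Zfp36 and Ier2. All 10 were found among the 11489 genes of the deposited table. RNA came from mouse bone marrow macrophages, as labelled, sorted by flow cytometry on the macrophage surface protein F4/80 and on eGFP from a reporter of Epor, the erythropoietin receptor gene. Both groups carried F4/80 on the surface, with 3 libraries of Epor-eGFP+ cells and 3 of Epor-eGFP- cells. Not given in the sources used here are strain, age, the construct of the reporter and any pooling of animals. Nothing in the labels says that the 3 libraries stem from different mice, so the spread behind each p-value may be technical. Libraries are called by the number in their column name, 0 to 2.

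Immediate early genes are transcribed within minutes of a stimulus such as a growth factor, a cytokine or stress, without prior protein synthesis, and their transcripts are short-lived. Fos and Jun family proteins pair through leucine zippers into AP-1, a transcription factor that binds the DNA motif TGANTCA. Serum response factor (SRF), with its partners of the Elk and myocardin-related families, and CREB act on many promoters of this class. In macrophages and granulocytes these genes accompany activation, and Zfp36 limits the response by promoting decay of cytokine transcripts.

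Levels are given in FPKM, that is, fragments divided by gene length and by the size of the library, so that genes of different length can be compared. A difference is the mean log2(FPKM + 1) of Epor-eGFP+ minus that of Epor-eGFP-, a scale that compresses the change of weakly expressed genes. It was tested with limma, two-sided, with Benjamini-Hochberg adjustment over the 10964 genes that averaged 1 FPKM or more, and a gene is said to have risen or fallen below an adjusted p of 0.05. All 10 genes were above that minimum.

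Over all tested genes, 2489 rose (22.7%) and 2883 fell (26.3%), a share of 46.3% higher among the calls. That share was 59.5% once all libraries were brought to the same total. Epor rose (5.96 ± 2.26 FPKM in Epor-eGFP+ against 0.335 ± 0.105 in Epor-eGFP-, SD, n = 3 libraries each), and Adgre1, which encodes F4/80, was at 167 ± 65.5 against 136 ± 3.85 without a call. All 12 macrophage markers listed were detected in every library, with sums of 2197 to 7219 FPKM in Epor-eGFP+ and 632 to 872 in Epor-eGFP-. Both groups also held abundant granulocyte transcripts. Sums of 11 neutrophil markers were 13205 to 17170 FPKM in Epor-eGFP+ and 24662 to 38891 in Epor-eGFP-. Sums of 4 promyelocyte markers (Elane, Mpo, Prtn3 and Ctsg), genes of granule proteins made early in the same lineage, were 7532 to 9353 FPKM in Epor-eGFP+ and 1428 to 2673 in Epor-eGFP-. In such bulk samples, fewer cells of a type and less RNA per cell cannot be told apart.

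Promoter sequences are shown for 4 genes with large negative differences, since these genes moved the same way. RefSeq promoter windows (GRCm38.p6) were searched for 8 of the 10 genes, and Ier2 and Egr1 were left out of this search. The 250 bases before the RefSeq start were searched on both strands for TGACGTCA (the cAMP response element, CRE), TGANTCA (the AP-1 motif), the CArG box of SRF and GCGNGGGCG (the Egr motif). The partial motif TGACG, which lies within the CRE, was added after the sequences had been seen. Capitals mark matches on either strand, each sequence runs 5′ to 3′ on the strand of its gene, and its coordinates stand before it.
Fos, chr12:85473640-85473889, plus strand: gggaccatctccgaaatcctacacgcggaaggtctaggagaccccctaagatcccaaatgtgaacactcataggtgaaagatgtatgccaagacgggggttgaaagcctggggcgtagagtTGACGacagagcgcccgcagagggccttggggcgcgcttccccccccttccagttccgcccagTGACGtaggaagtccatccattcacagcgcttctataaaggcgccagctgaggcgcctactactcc
Junb, chr8:84978749-84978998, minus strand: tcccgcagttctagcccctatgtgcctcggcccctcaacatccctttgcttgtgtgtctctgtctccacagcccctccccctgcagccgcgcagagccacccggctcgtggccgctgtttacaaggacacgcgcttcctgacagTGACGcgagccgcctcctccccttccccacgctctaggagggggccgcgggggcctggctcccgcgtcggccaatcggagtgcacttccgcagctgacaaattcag
Nr4a1, chr15:101266596-101266845, plus strand: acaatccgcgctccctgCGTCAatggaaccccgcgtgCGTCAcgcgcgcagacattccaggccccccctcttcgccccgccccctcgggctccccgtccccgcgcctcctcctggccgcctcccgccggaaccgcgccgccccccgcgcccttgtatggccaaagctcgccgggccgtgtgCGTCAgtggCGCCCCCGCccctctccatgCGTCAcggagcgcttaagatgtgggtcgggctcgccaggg
Zfp36 CArG match, chr7:28379267-28379296, minus strand: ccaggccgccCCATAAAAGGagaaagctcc
Zfp36 Egr match, chr7:28379315-28379344, minus strand: cgagctacgccGCGGGGGCGcgtcccggaa

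For Zfp36, 30 bases around each match are given, because GENCODE M21 places the window in an exon of a longer transcript. The Fos, Junb and Nr4a1 windows overlap no annotated exon. Zfp36 held the only CArG match of the 8 genes, at -58 from the start, against 1.47% of 32851 mouse promoter windows of the same length. The Egr motif was matched in Zfp36 (-105), Nr4a1 (-60) and Fosb (-50), against 4.7% of windows. The partial motif TGACG was matched in Fos, Junb, Nr4a1, Fosb and Atf3, with 4 matches in Nr4a1 and 2 in Fos, against 17.8% of windows. The full CRE (1.55% of windows) and the AP-1 motif (6.75%) matched in 0 of the 8. A match describes letters in the window and shows no binding. Sites outside these windows were not searched, so a missing match does not mean that a gene lacks the motif.

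Of the 10 genes, 4 fell in Epor-eGFP+ cells, namely Nr4a1, Zfp36, Ier2 and Junb, and none rose. Their mean levels were 0.276, 0.352, 0.396 and 0.435 times those of Epor-eGFP- cells. The share that fell was 40%, against 26.3% of all tested genes, which is close enough that the count is not itself a result about these genes. All 10 differences were negative, with a median of -0.98 on the log2 scale, against a median of -0.01 over all tested genes. At an unadjusted p below 0.05, 7 were lower (against 29.9% of all tested genes) and 0 higher by limma. When the column number entered the fit as a replicate block, 8 of the 10 fell, against 30.4% of all tested genes. Jun and Fosb were the others, and all 8 are described below with both fits where the call differs.

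**Figure D1:**
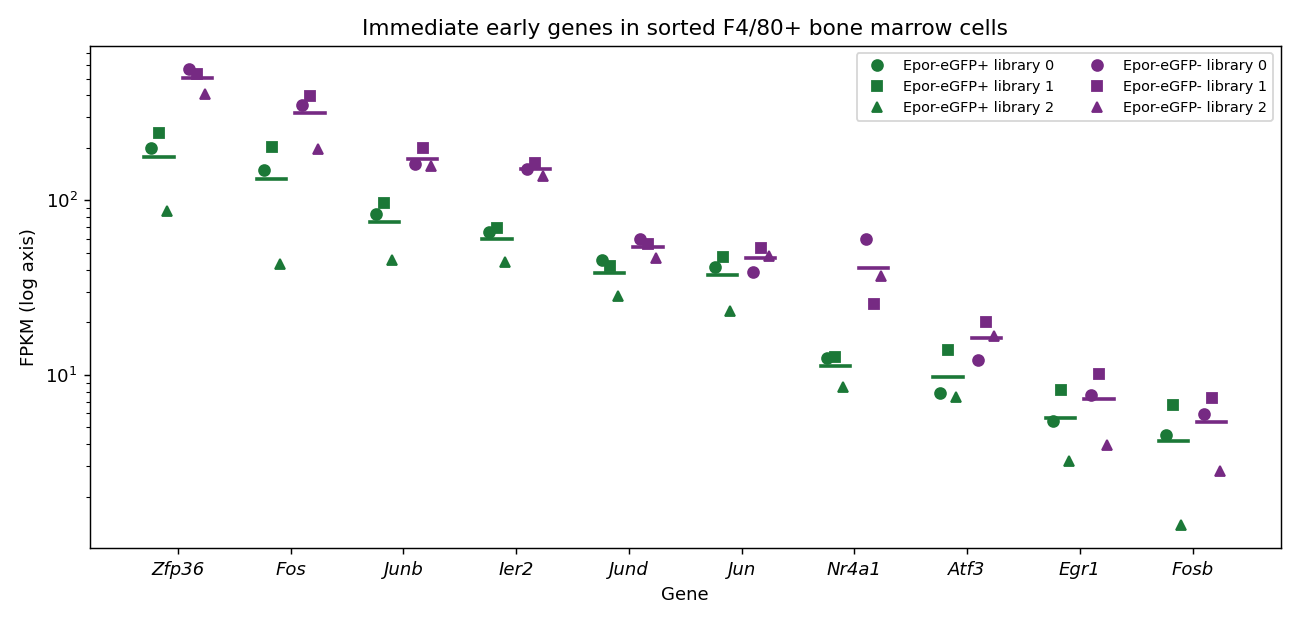
FPKM of each gene in every library on a log axis, Epor-eGFP+ in green left of Epor-eGFP- in purple, with a horizontal line at each group mean and a marker shape for each column number. Library 2 (triangles) is the lowest Epor-eGFP+ library for all 10 genes.

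Zfp36 encodes tristetraprolin, an RNA-binding protein that directs transcripts with AU-rich elements to decay, and had the highest mean of the 10 genes in both groups. It was at 199, 245 and 86.9 FPKM across Epor-eGFP+ libraries 0, 1 and 2, against 569, 532 and 406 FPKM across Epor-eGFP- libraries 0, 1 and 2. Every Epor-eGFP+ library lay below every Epor-eGFP- library, and Epor-eGFP+ library 2 stood lowest. The log2 difference was -1.61 (SE 0.37, limma adjusted p = 0.0112). Groups failed to overlap in this direction for 5 of the 10 genes, against 31.9% of all tested genes. Zfp36 lies on the minus strand of chromosome 7, from 28376784 to 28380253 (GRCm38, GENCODE M21), and an annotated antisense transcript, Gm44710, overlaps it. The counting is not stated to use strand, so reads of such overlapping pairs cannot be told apart.

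Nr4a1 encodes an orphan nuclear receptor that patrolling (Ly6C-low) monocytes of the mouse need for their development. It was at 12.5, 12.6 and 8.56 FPKM across Epor-eGFP+ libraries 0, 1 and 2, and at 59.9, 25.5 and 36.7 FPKM across Epor-eGFP- libraries 0, 1 and 2. The groups did not overlap, and the Epor-eGFP+ libraries lay close together, while Epor-eGFP- library 0 stood above the other two. The difference was -1.70 (SE 0.30, adjusted p = 0.00423), more negative than that of any other of the 10 genes, and only 0.766% of all tested genes had a more negative one. Nr4a1 lies on the plus strand of chromosome 15, from 101254269 to 101274795, and its 4 annotated transcripts have 2 to 8 exons.

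Ier2 encodes a nuclear protein induced by growth factors, and its gene has a single exon on chromosome 8 (84661331 to 84662852, minus strand). Levels were 65.9, 69.2 and 44.6 FPKM across Epor-eGFP+ libraries 0, 1 and 2, against 152, 164 and 137 FPKM across Epor-eGFP- libraries 0, 1 and 2. The groups were far apart for their spread (59.9 ± 13.4 against 151 ± 13.6 FPKM, SD, n = 3 each). The difference was -1.34 (SE 0.17), and its adjusted p of 0.00133 was the smallest of the 10 genes.

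The Jun family supplies the partners without which Fos proteins do not bind DNA. Junb, a family member that can restrain the activity of Jun, was at 83.8, 96.5 and 45.4 FPKM across Epor-eGFP+ libraries 0, 1 and 2, against 162, 200 and 157 FPKM across Epor-eGFP- libraries 0, 1 and 2. The groups did not overlap and the difference was -1.25 (SE 0.27, adjusted p = 0.00885). Junb lies on the minus strand of chromosome 8, from 84974484 to 84978718. It overlaps Prdx2, a peroxiredoxin gene on the opposite strand, in 173 of the 2301 bases of its exons. Prdx2, named after its values were seen, rose (156 ± 17.6 FPKM in Epor-eGFP+ against 106 ± 14.0 in Epor-eGFP-), so the difference of Junb ran the other way from that of its overlapping neighbour.

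Jund, the family member with the steadiest expression in resting cells, was at 45.4, 42.0 and 28.2 FPKM across Epor-eGFP+ libraries 0, 1 and 2, against 59.8, 56.3 and 46.7 FPKM across Epor-eGFP- libraries 0, 1 and 2. The groups did not overlap, but the difference of -0.50 (SE 0.19, 95% interval -0.95 to -0.06) missed the threshold (adjusted p = 0.0598). It passed with the replicate block (SE 0.08, adjusted p = 0.00674) and without both libraries numbered 2 (adjusted p = 0.0138). Without Epor-eGFP+ library 2 alone the difference was -0.30 (adjusted p = 0.0813). Jun, the best-known stress target of the family, was at 41.6, 47.5 and 23.3 FPKM across Epor-eGFP+ libraries 0, 1 and 2, against 39.1, 53.3 and 48.2 FPKM across Epor-eGFP- libraries 0, 1 and 2. The groups overlapped and the difference of -0.36 (SE 0.26, interval -0.98 to 0.25, adjusted p = 0.279) was carried by Epor-eGFP+ library 2, without which it was -0.06. Jun (chromosome 4, 95049034 to 95052222, minus strand) and Jund (chromosome 8, 70698949 to 70700616, plus strand) are single-exon genes, each overlapped by an annotated antisense transcript.

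The make-up of the Jun family transcripts differed between the groups. Junb held 49.1, 51.9 and 46.9% of the summed FPKM of Jun, Junb and Jund across Epor-eGFP+ libraries 0, 1 and 2, against 62.1, 64.5 and 62.4% across Epor-eGFP- libraries 0, 1 and 2. Jun held 24.1 to 25.6% in Epor-eGFP+ and 14.97 to 19.1% in Epor-eGFP-, so for both genes the groups did not overlap in this share. The share of Jund overlapped (22.6 to 29.1% against 18.2 to 22.9%). Shares of the same sum depend on each other, so those of Junb and Jun are not separate results. The difference in shares was not tested. Summed family levels were 151 ± 47.7 FPKM in Epor-eGFP+ and 274 ± 30.7 FPKM in Epor-eGFP- (SD, n = 3 each). Epor-eGFP+ library 2 had the lowest sum, 96.9 FPKM, while its shares were close to those of the other two libraries of its group.

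**Figure D2:**
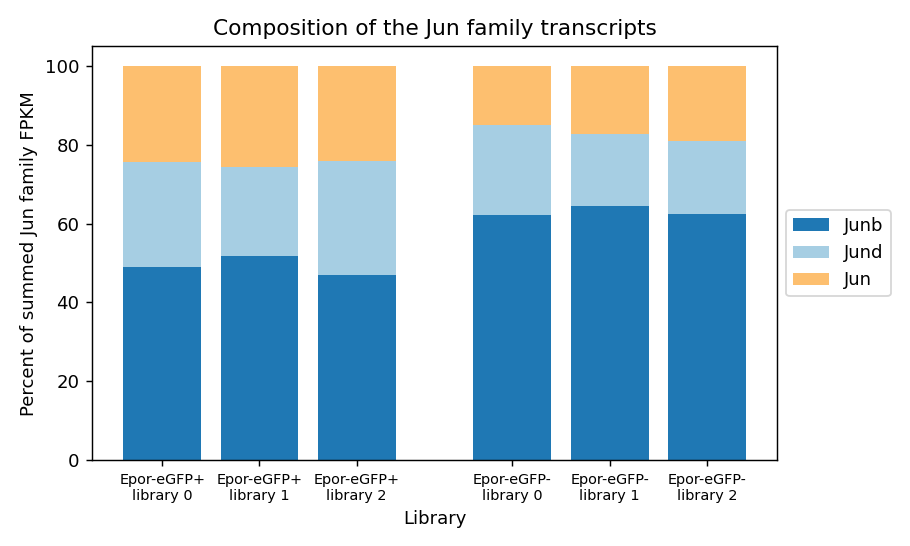
Percent of the summed Jun family FPKM held by Junb, Jund and Jun in each library, Epor-eGFP+ libraries left of Epor-eGFP- libraries. Junb holds 46.9 to 51.9% in Epor-eGFP+ and 62.1 to 64.5% in Epor-eGFP-.

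Fos, the founding Fos family gene, was the second most abundant of the 10 in both groups and varied most between libraries of a group among the genes above 100 FPKM in Epor-eGFP-. It was at 149, 203 and 43.4 FPKM across Epor-eGFP+ libraries 0, 1 and 2, against 353, 397 and 198 FPKM across Epor-eGFP- libraries 0, 1 and 2. Library 2 was lowest in both groups, and Epor-eGFP+ library 1 lay just above Epor-eGFP- library 2, so the groups overlapped. The difference of -1.45 (SE 0.57, interval -2.80 to -0.11, adjusted p = 0.0705) missed the threshold. It passed with the replicate block (SE 0.24, adjusted p = 0.00705), without Epor-eGFP+ library 1 (-1.90, adjusted p = 0.0339) and without both libraries numbered 2 (-1.10, adjusted p = 0.00577). Without Epor-eGFP+ library 2 the difference was -0.79 (adjusted p = 0.0761). Fos lies on the plus strand of chromosome 12, from 85473890 to 85477273, with no overlapping annotated gene.

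Fosb, a Fos relative on chromosome 7 (19302696 to 19310051, minus strand), had the lowest mean of the 10 in both groups. Its levels were 4.52, 6.67 and 1.37 FPKM across Epor-eGFP+ libraries 0, 1 and 2, against 5.94, 7.33 and 2.81 FPKM across Epor-eGFP- libraries 0, 1 and 2. The groups overlapped widely (difference -0.38, SE 0.47, interval -1.49 to 0.73, adjusted p = 0.529), and the sign turned without Epor-eGFP+ library 2 (0.11). Fos made up 96.8 to 97.1% of the summed FPKM of Fos and Fosb in Epor-eGFP+ and 98.2 to 98.6% in Epor-eGFP-.

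Atf3, a stress-induced factor of the ATF/CREB family that can pair with Jun proteins, was at 7.89, 13.9 and 7.48 FPKM across Epor-eGFP+ libraries 0, 1 and 2, against 12.2, 20.2 and 16.7 FPKM across Epor-eGFP- libraries 0, 1 and 2. Only Epor-eGFP+ library 1 reached into the range of Epor-eGFP-. The difference of -0.71 (SE 0.26, interval -1.32 to -0.10) missed the threshold (adjusted p = 0.0549). It passed with the replicate block (adjusted p = 0.00821), without Epor-eGFP+ library 1 (-0.97, adjusted p = 0.0109) and without Epor-eGFP- library 0 (-0.90, adjusted p = 0.0448). Atf3 spans 191170296 to 191218039 on the minus strand of chromosome 1.

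Egr1, a zinc finger factor downstream of ERK signalling with a part in macrophage differentiation, was low in both groups. It was at 5.45, 8.19 and 3.22 FPKM across Epor-eGFP+ libraries 0, 1 and 2, against 7.70, 10.1 and 3.95 FPKM across Epor-eGFP- libraries 0, 1 and 2. The groups overlapped, and in both library 1 was highest and library 2 lowest. The difference of -0.31 (SE 0.37, interval -1.18 to 0.56, adjusted p = 0.507) had no call, whereas with the replicate block it passed (SE 0.08, adjusted p = 0.0209). Without Epor-eGFP+ library 2 it was -0.02. Egr1 lies on the plus strand of chromosome 18, from 34859823 to 34864984.

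By exact two-sided permutation of the libraries, p was 0.1 for Zfp36, Nr4a1, Ier2, Junb and Jund, the smallest that 3 against 3 libraries allow. By the same exact test, p was 0.2 for Fos and Atf3, 0.4 for Jun and 0.6 for Fosb and Egr1.

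**Figure D3:**
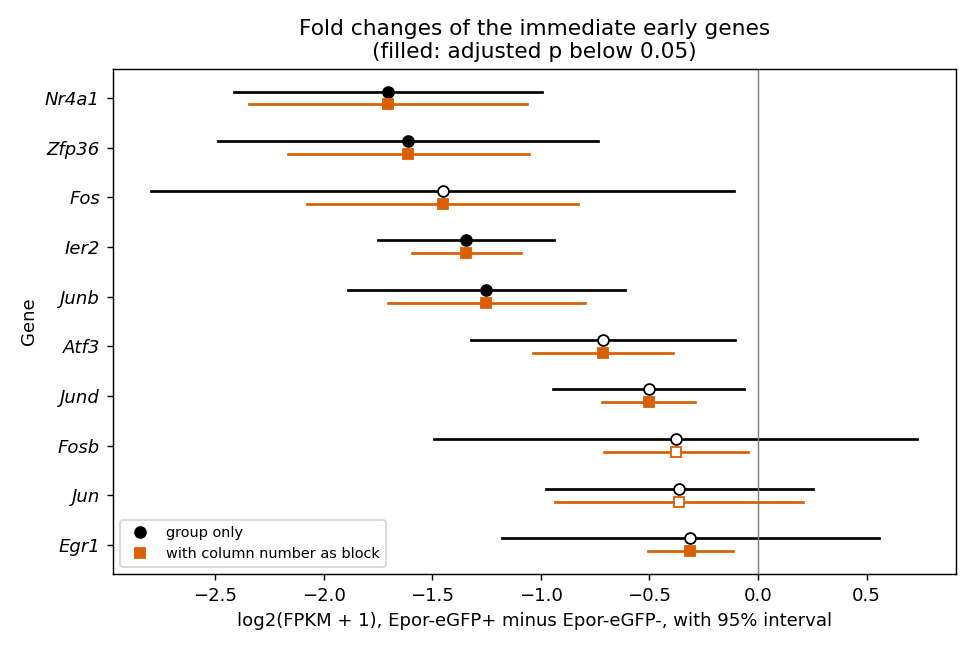
Difference in mean log2(FPKM + 1), Epor-eGFP+ minus Epor-eGFP-, with its 95% interval for each gene, in the fit with the group only (circles) and with the column number as a block (squares). Filled symbols have an adjusted p below 0.05: 4 of 10 with the group only and 8 of 10 with the block.

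The 10 genes ordered the Epor-eGFP+ libraries much alike and the Epor-eGFP- libraries less so. Epor-eGFP+ library 2 was the lowest of its group for all 10, and library 1 the highest for 9, Jund being the exception. Among Epor-eGFP- libraries, library 2 was lowest for 7 of the 10 and library 1 highest for 7. Set against the Epor-eGFP- library of the same number, the Epor-eGFP+ library was lower in 29 of 30 comparisons, the exception being Jun for number 0. The 30 comparisons reuse the same library pairs and are not independent. How often these orders occur over all tested genes was not counted. Summed FPKM of the 10 genes was 616, 745 and 292 across Epor-eGFP+ libraries 0, 1 and 2, against 1421, 1466 and 1053 across Epor-eGFP- libraries 0, 1 and 2. Without Epor-eGFP+ library 2 the same count of 4 genes fell, and the median difference was -0.68.

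Epor-eGFP+ library 2 also had the highest macrophage marker sum. The 12 macrophage markers summed to 3424, 2197 and 7219 FPKM across Epor-eGFP+ libraries 0, 1 and 2, against 745, 632 and 872 across Epor-eGFP- libraries 0, 1 and 2. Each of the 12 was highest in library 2 among Epor-eGFP+ libraries. Of the 12, 8 rose (66.7%, against 22.7% of all tested genes). Adgre1, Cd68, Fcgr1 and Csf1r had no call, and the difference of Csf1r was negative (-0.32). Among Epor-eGFP- libraries the markers did not share an order: in library 2 Csf1r (353 FPKM) and Cd68 (250 FPKM) were at their highest and Vcam1 (24.5 FPKM) and C1qb (18.0 FPKM) at their lowest. Of the 8 monocyte markers, all 8 fell, with sums of 1274 to 1577 FPKM in Epor-eGFP+ and 3074 to 4314 in Epor-eGFP-, and of the 11 neutrophil markers 10 fell (100% and 90.9%, against 26.3% of all tested genes). The 4 promyelocyte markers all rose, with differences of 2.16 to 2.33. The 9 erythroid markers summed to 341 to 471 FPKM in Epor-eGFP+ and 47.6 to 61.1 in Epor-eGFP-, and 7 of them rose (77.8%, against 22.7% of all tested genes). Of the markers in these 5 lists, none was at 0 in any library. A further list of 8 eosinophil markers summed to 8048 to 15961 FPKM in Epor-eGFP+ and 14941 to 24496 in Epor-eGFP-, with overlap. Of the 8, 4 fell, 1 rose and 3 had no call. Prg2, without a call, had a value of 0 in Epor-eGFP+ library 0, against 10348 FPKM in library 1 and 11088 FPKM in library 2. The eosinophil sum of Epor-eGFP+ library 0 was the lowest because of this value. Among Epor-eGFP+ libraries, Epx, Ear1, Ear2, Ear6, Alox15 and Siglecf were each highest in library 0, and Ccr3 in library 2. Epx was at 2419, 1584 and 1591 FPKM across Epor-eGFP+ libraries 0, 1 and 2. The part of these cell types in the lower levels of the 10 genes was not tested.

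**Figure D4:**
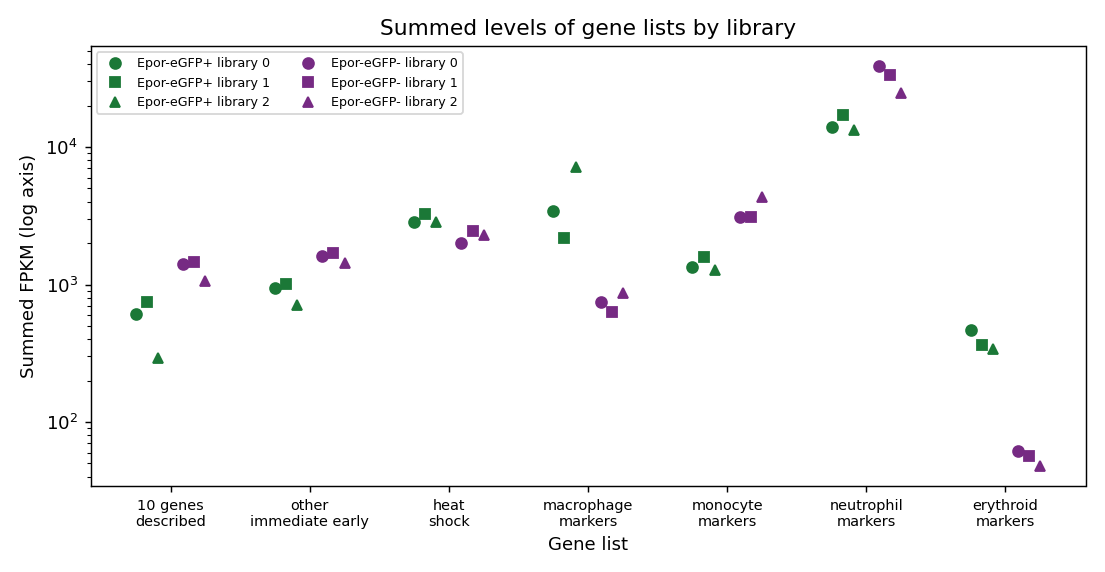
Summed FPKM of 7 gene lists in each library on a log axis, Epor-eGFP+ in green left of Epor-eGFP- in purple, with a marker shape for each column number. The 10 genes sum to 292 to 745 FPKM in Epor-eGFP+ and 1053 to 1466 in Epor-eGFP-, while the sums of macrophage and of erythroid markers lie higher in Epor-eGFP+.

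Other immediate early genes were mostly lower in Epor-eGFP+ cells as well. Of 32 such genes, 20 fell (62.5%, against 26.3% of all tested genes), 2 rose and 10 had no call, with a median difference of -0.77. This list, like the others, was chosen with earlier results of these data known, so its share is not independent support. Klf2, a Kruppel-like factor that restrains the activation of monocytes, fell most among them, at 26.1 ± 6.10 FPKM in Epor-eGFP+ against 85.0 ± 10.1 in Epor-eGFP- (difference -1.69, SE 0.18, adjusted p = 0.000811). Also among those that fell were Dusp5, a phosphatase of ERK (difference -1.22, SE 0.27), Klf4, which monocytes need for their differentiation (-1.21, SE 0.13), Klf10 (-1.15, SE 0.17) and the kinase gene Sik1 (-1.11, SE 0.22). The 2 that rose, named after their values were seen, were Myc (41.6 ± 6.71 FPKM in Epor-eGFP+ against 20.9 ± 6.01 in Epor-eGFP-, difference 0.99) and Zfp36l1 (24.7 ± 2.65 against 15.1 ± 6.37, difference 0.74, adjusted p = 0.0445).

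Zfp36l1 and Zfp36l2 encode RNA-binding relatives of tristetraprolin, and they moved in opposite directions. Zfp36l2 was at 177 ± 40.1 FPKM in Epor-eGFP+ against 357 ± 47.5 in Epor-eGFP- (difference -1.03, SE 0.19, adjusted p = 0.00489). Zfp36l1 did not separate the groups fully, since Epor-eGFP+ library 2 was at 21.7 FPKM and Epor-eGFP- library 0 reached 22.4. Its call was lost without any 1 library other than Epor-eGFP- library 0, with adjusted p from 0.0514 (without Epor-eGFP+ library 2) to 0.13 (without Epor-eGFP- library 2). Dusp1, a phosphatase of stress-activated kinases named here after its values were seen, had the widest spread of the list. It was at 83.5, 113 and 12.2 FPKM across Epor-eGFP+ libraries 0, 1 and 2, against 166, 250 and 45.1 FPKM across Epor-eGFP- libraries 0, 1 and 2 (difference -1.31, SE 0.93, adjusted p = 0.278, and 0.00379 with the replicate block). As with Fos, library 1 was highest and library 2 lowest in both groups.

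Relatives of the 10 genes within the AP-1, Egr and Nr4a families were 19 in the list, of which 14 were tested. Of these, 5 fell (35.7%, against 26.3% of all tested genes), 4 rose (28.6%, against 22.7%) and 5 had no call, shares near those of all tested genes. Their median of -0.12 was -0.05 without Epor-eGFP- library 2, -0.03 after rescaling to a common total and -0.33 among genes of at least 5 FPKM. Egr2 and Egr3 were below the minimum of 1 FPKM, and Fosl1, Nr4a2 and Nr4a3 had no values in the data used here. Fosl2, another Fos family gene, was at 11.0, 11.3 and 9.02 FPKM across Epor-eGFP+ libraries 0, 1 and 2, against 31.8, 31.0 and 37.0 FPKM across Epor-eGFP- libraries 0, 1 and 2. Its groups lay far apart with little spread (difference -1.59, SE 0.11, adjusted p = 0.000329). The small Maf gene Mafg fell (difference -0.68, SE 0.07). Maf, a large Maf factor expressed in macrophages, rose by 2.66 (SE 0.32). Nab2, a corepressor of Egr proteins, rose to 7.88 ± 0.445 FPKM in Epor-eGFP+, against 4.47 ± 0.229 in Epor-eGFP- (difference 0.70, SE 0.08).

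Among 10 upstream regulators, 5 fell and none rose (0 also at an unadjusted p below 0.05 by limma), with a median of -0.22. That is 50% lower, against 26.3% of all tested genes, and the median was -0.13 after rescaling to a common total and -0.48 among genes of at least 5 FPKM. Mkl1, an actin-regulated coactivator of SRF, was at 32.7, 33.4 and 30.7 FPKM across Epor-eGFP+ libraries 0, 1 and 2, against 76.1, 74.2 and 75.6 FPKM across Epor-eGFP- libraries 0, 1 and 2. The groups were tight and far apart (difference -1.20, SE 0.06, adjusted p = 0.000229). Elk3 and Elk4, SRF partners of the ternary complex factor family, fell (differences -0.69, SE 0.10, and -0.52, SE 0.09). Crtc2, a CREB coactivator (-0.48, SE 0.07), and Creb1 (-0.32, SE 0.10) fell as well. The call of Creb1 was lost without any 1 library other than Epor-eGFP+ library 1 (adjusted p 0.0608 to 0.111) and after rescaling to a common total (0.12). Srf itself, named after its values were seen, was at 25.3 ± 2.37 FPKM in Epor-eGFP+ and 27.4 ± 1.48 in Epor-eGFP- (difference -0.11, interval -0.32 to 0.10, adjusted p = 0.320).

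Cytokine transcripts that tristetraprolin destabilises reached group means of at most 24.0 FPKM, that of Ccl3 in Epor-eGFP-. Of 14 listed, 9 were tested: Tnf fell, Il1a rose and 7 had no call (11.1% in each direction, against 26.3% lower and 22.7% higher of all tested genes). Their median of -0.38 was -0.10 without Epor-eGFP+ library 2, -0.18 without Epor-eGFP- library 1 and -0.54 without Epor-eGFP- library 0. Tnf was at 2.75, 3.91 and 2.23 FPKM across Epor-eGFP+ libraries 0, 1 and 2, against 8.28, 7.64 and 4.51 FPKM across Epor-eGFP- libraries 0, 1 and 2 (difference -0.96, SE 0.24, adjusted p = 0.0145). Tnf lost its call without Epor-eGFP+ library 0 (adjusted p = 0.0507) and without Epor-eGFP- library 0 (0.0539). Osm had a difference of -1.16 without a call (adjusted p = 0.0539), and with the replicate block it passed (0.00193), so that 2 of the list then fell. Il1a rose to 2.37 ± 1.10 FPKM in Epor-eGFP+, against 0.153 ± 0.0115 in Epor-eGFP- (difference 1.49, SE 0.24, adjusted p = 0.00317). Il1a reached the minimum mean of 1 FPKM only through Epor-eGFP+, so its entry among the tested genes depended on the group where it is high.

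The listed heat shock genes, among them chaperones of mitochondria and of the endoplasmic reticulum, mostly moved the other way. Of 11 tested, 7 rose (63.6%, against 22.7% of all tested genes), 1 fell and 3 had no call, with a median of 0.65. Hspd1, the mitochondrial chaperonin, rose by 1.09 (SE 0.15), Hspa5, the chaperone of the endoplasmic reticulum, by 1.002 (SE 0.14), Hsp90aa1 by 0.997 (SE 0.17), Hsph1 by 0.95 (SE 0.21) and Hspe1 by 0.75 (SE 0.10). The stress-inducible Hspa1a and Hspa1b, near-identical copies whose estimates are uncertain singly and named after their values were seen, were low in both groups. Hspa1a was at 2.199 ± 0.877 FPKM in Epor-eGFP+ and 2.62 ± 2.27 in Epor-eGFP-, and Hspa1b at 2.77 ± 1.34 and 3.73 ± 2.89, without a call. Dnajb1, a cofactor of Hsp70, was the gene that fell (21.4 ± 1.59 FPKM in Epor-eGFP+ against 27.1 ± 1.84 in Epor-eGFP-, difference -0.33). That call was lost without Epor-eGFP+ library 0 (adjusted p = 0.0665), Epor-eGFP- library 1 (0.0516) or Epor-eGFP- library 2 (0.05) and after rescaling to a common total (0.105).

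**Figure D5:**
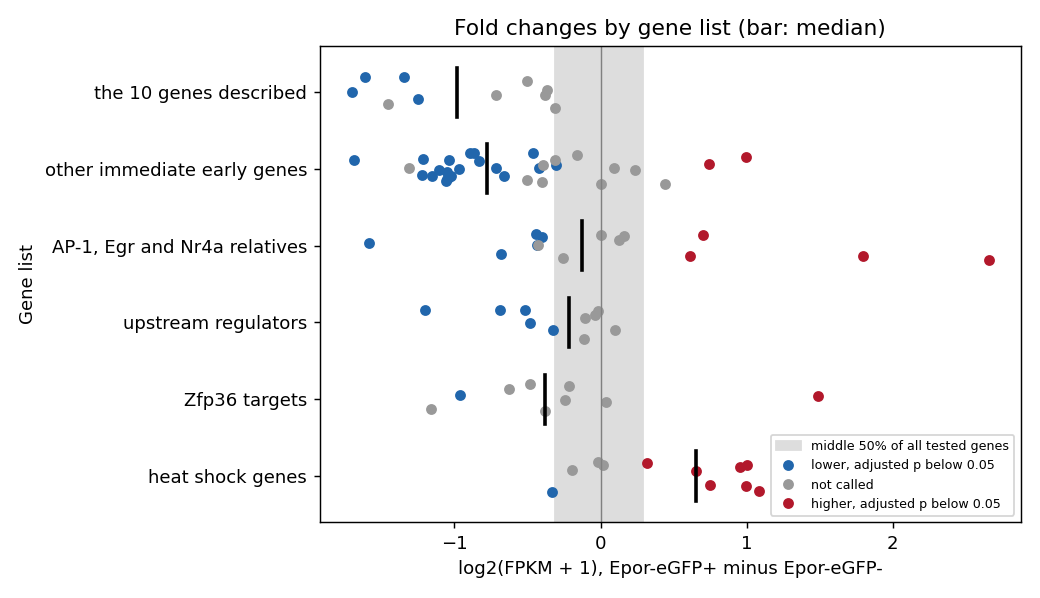
Difference in mean log2(FPKM + 1), Epor-eGFP+ minus Epor-eGFP-, for each tested gene of 6 lists, coloured by call, with a bar at the list median and a grey band over the middle 50% of all tested genes. The medians of the 10 genes (-0.98) and of the other immediate early genes (-0.77) lie below the band and that of the heat shock genes (0.65) above it.

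Genes with the most similar profile over the 6 libraries were sought among 6384 other genes that averaged 10 FPKM or more, by the root mean square difference of centred log2(FPKM + 1). Closest to the mean profile of the 10 genes were Zfp36l2 (0.145, Pearson r 0.971), Sik1 (0.152, r 0.969) and Rgs18, a regulator of G protein signalling (0.164, r 0.977). Zfp36l2 and Sik1 are themselves in the list of other immediate early genes. Itgb3, an integrin chain of platelets and macrophages, was closest to Ier2 (0.112), Junb (0.122), Zfp36 (0.218) and Fos (0.432). It was at 10.4, 12.2 and 5.95 FPKM across Epor-eGFP+ libraries 0, 1 and 2, against 27.0, 28.3 and 20.8 FPKM across Epor-eGFP- libraries 0, 1 and 2. Ccl3 was closest to Fosb (0.298) and Rabgap1l to Jund (0.0695). Such likeness covers 6 libraries in 2 groups and describes these profiles.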

How the data were processed

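TruSeq RNA libraries of Epor-eGFP+ and Epor-eGFP- cells from the F4/80+ gate (3 each, per the labels' protocols) were analysed. The authors deposited FPKM values for 11489 genes. The submitters' processing notes name mm10, Cufflinks 2.2.1, TopHat2 2.1.0, Trimmomatic 0.35 and bcl2fastq 2.19.1.403, with no role or order. Annotation, filters and strand setting: not given in the sources used here. FPKM holds no counts, so depth and counting intervals are not available from these values. Library medians were 11.7 to 11.8 FPKM.

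Columns were assigned to groups by name. The model, in limma 3.58.1 (R 4.3.3), took log2(FPKM + 1) against group alone, using eBayes and a mean-variance trend, for 10964 genes averaging 1 FPKM or more. Same-numbered columns deviated together from their group means (r = 0.252, 0.377 and 0.348 for numbers 0, 1 and 2), above 0.1 in every pair, so the fit with this replicate block is printed where it changes a call. What the numbers mark is not stated in the labels. Fits were tested on simulated data. Alternatives covered the pseudocount, the low-value filter, scaling, the trend, the block and left-out libraries. The members and lists were chosen with earlier results of these data known. Named were the 10 members and, per further list, up to 5 called genes with the largest absolute difference, or, where none was called, up to 3 with the highest FPKM. One gene that this rule names is not reported here.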

Additional observations from a re-analysis of the deposited data

How the results depend on the processing

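Over 16 alternatives, 4 to 8 of the 10 genes fell and 0 rose. Nr4a1, Zfp36, Ier2 and Junb kept direction and call in every alternative. With the replicate block 8 fell: Fos (-1.453), Jund (-0.5044), Atf3 (-0.713) and Egr1 (-0.3117) were added, and 2 Zfp36 targets fell. The block ended no call of the genes named. Without both libraries numbered 2, Fos (-1.099), Jund (-0.4018) and 2 Zfp36 targets passed. With each library left out in turn, differences ran from -1.895 to -0.7934 for Fos, -0.6348 to -0.2991 for Jund, -0.9714 to -0.5546 for Atf3, -0.7408 to 0.1071 for Fosb (positive without Epor-eGFP+ library 2), -0.5612 to -0.06215 for Jun and -0.641 to -0.02176 for Egr1. Left-out libraries also gave 1634 to 2479 genes higher over the table, 1 to 2 other immediate early genes higher, 0 to 2 Zfp36 targets lower and 0 to 1 heat shock genes lower. With a common total, or without both libraries numbered 2, 0 heat shock genes fell. Quantile normalization gave 2 Zfp36 targets lower. With genes under 5 FPKM left out, 0 Zfp36 targets rose or fell, since fewer were tested, and Fosb was not tested. The cause of the other changes was not tested. Since read depth is unknown, what counting error adds to the low genes Fosb and Egr1 cannot be given. No scaling moved the median of all genes by more than 0.0895.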
